A study of Mus musculus with 8 samples.

Results

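The receptors described here are 10 genes of mouse myeloid cells, 5 Siglecs (Cd33, Cd22, Siglece, Siglecf and Siglec1) and 5 other inhibitory or paired receptors (Lilrb4a, Pirb, Cd300a, Lair1 and Sirpa). They were chosen by name and looked up by gene symbol. All 10 were found among the 54532 genes listed for PTS + RS and RS, and all 10 among the 28229 genes listed for RGFP109 and NaCl.

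RNA-seq was performed on 8 brain libraries of male C57BL/6 mice at Day 21. PTS + RS mice (2 libraries) had a photothrombotic stroke, a clot set off by light in the cortex, and restraint stress, and RS mice (2 libraries) had the restraint stress without a stroke. The other 4 libraries were all from PTS + RS mice, 2 of them given the HDAC3 inhibitor RGFP109 under the skin once a day for 2 weeks at 60 mg/kg and 2 given vehicle, named NaCl in the labels. The labelled tissue was cortex for PTS + RS and RS, whereas for RGFP109 and NaCl it was cortex in replicate 1 and amygdala in replicate 2. The sources used here do not say whether a library held 1 mouse or a pool, so p-values measure the spread between libraries, which may be technical.

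Library totals over all genes lay between 15902013 and 21712033 counts. A level within a gene is stated as CPM (each count relative to its library's TMM-normalized total) and between genes as FPKM, which also divides by gene length. The labelled tissues did not all match marker genes. Olfactory bulb markers summed to 1951 CPM in NaCl replicate 1 and to at most 324 CPM in RGFP109 and the other NaCl library. Striatal markers summed to 1369 and 1509 CPM in the amygdala-labelled libraries and to 211 and 256 CPM in the cortex-labelled libraries of the same groups, and 9 of 10 cerebral cortex markers were higher under the amygdala label. Choroid plexus markers were lower in PTS + RS than in RS in 10 of 10 genes. They summed to 224 and 2542 CPM in PTS + RS against 2777 and 5588 CPM in RS. The part of these tissue differences in the results below was not tested. In whole tissue, more cells of a type and more RNA per cell cannot be told apart.

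Siglecs are cell surface lectins that bind sialic acid, the sugar at the end of many glycan chains. Most Siglecs, and the immunoglobulin-like receptors Lilrb4a, Pirb, Cd300a, Lair1 and Sirpa, carry inhibitory motifs (ITIMs) in the cytoplasmic tail that recruit the phosphatases SHP-1 and SHP-2 and restrain signals from activating receptors. In brain most of them are known from microglia and from the macrophages at the brain's borders, where they are studied as brakes on phagocytosis and inflammation. Sirpa is also known from neurons.

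The genes lie on 4 chromosomes, and 6 of the 10 are on chromosome 7 (GRCm38). Siglecf (43351341 to 43359531, plus strand), Cd33 (43524216 to 43544428, minus strand) and Siglece (43651070 to 43660161, minus strand) lie within 308821 bases of each other. Cd22 (30865402 to 30880342), Pirb (3711409 to 3720391) and Lair1 (4003402 to 4063204) are elsewhere on chromosome 7. Siglec1 and Sirpa are on chromosome 2, Lilrb4a on chromosome 10 and Cd300a on chromosome 11. All 10 are annotated as protein-coding with the same coordinates in GENCODE M21.

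Promoter sequences in RefSeq (GRCm38.p6) matched 7 of the 10 genes, namely Cd33, Cd22, Siglece, Siglecf, Pirb, Cd300a and Lair1. The neighbouring genes Siglecf and Cd33 share the longest run of letters of any pair, 16 bases, and the 250 bases before each gene start are shown for that reason. The run is in capitals, beginning 27 bases before the start in Siglecf (chr7:43351091-43351340, plus strand) and 157 bases before it in Cd33 (chr7:43533172-43533421, minus strand, inside the gene's annotated extent).
Siglecf: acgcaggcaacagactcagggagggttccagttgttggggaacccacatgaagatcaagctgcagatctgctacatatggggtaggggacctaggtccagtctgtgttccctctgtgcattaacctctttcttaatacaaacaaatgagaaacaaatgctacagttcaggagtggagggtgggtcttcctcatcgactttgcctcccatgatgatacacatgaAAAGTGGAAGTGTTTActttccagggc
Cd33: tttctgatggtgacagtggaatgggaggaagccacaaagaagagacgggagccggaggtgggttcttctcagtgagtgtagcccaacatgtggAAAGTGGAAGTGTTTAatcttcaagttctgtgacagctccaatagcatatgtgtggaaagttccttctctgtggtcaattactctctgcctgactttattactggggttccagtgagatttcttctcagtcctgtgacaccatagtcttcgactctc
Searched on both strands, this run was found in 2 of the 32851 promoters of the table (0.00609%), those of Siglecf and Cd33. The run was picked because these promoters share it, so both matches follow from the choice. How often other pairs of promoters share a run of this length was not tested. The next longest shared run, between Lair1 and Cd300a, was 12 bases. The letters GGAAGT, which the run holds and which form the core of ETS family motifs, were found in 3 of the 7 promoters (Siglecf, Cd33 and Pirb) and in 19.7% of all promoters. The longer form GAGGAAGT was found in Pirb and in 2.44% of all promoters. These are matches of letters and not measured binding sites.

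PTS + RS was first compared with RS, which asks what the stroke adds in stressed mice. All 10 receptors were higher in both PTS + RS libraries than in both RS libraries, a separation upwards that 25.7% of the 17581 tested genes had. A fitted log2 fold change above 0, which all 10 had, was found in 49.7% of tested genes. By size they fell into a group from 20.4- to 27.1-fold higher in mean CPM (Cd22, Siglecf, Siglec1 and Lilrb4a), a group from 2.42- to 3.86-fold higher (Cd33, Siglece, Pirb, Cd300a and Lair1), and Sirpa at 1.23-fold. With edgeR's quasi-likelihood test and Benjamini-Hochberg (BH) adjustment over all tested genes, a gene was called when its adjusted p was below 0.05 with a log2 fold change beyond 1 in size. By this rule 6 of the 10 were called higher, against 2.12% of all tested genes called higher and 0.091% called lower. The 6 genes Cd22, Siglece, Siglecf, Siglec1, Lilrb4a and Pirb had enough counts to be tested only through the PTS + RS libraries, so that they had to be higher there. Of the 4 that passed the count filter in both groups, Cd33 and Lair1 were called and Cd300a and Sirpa were not.

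**Figure D1:**
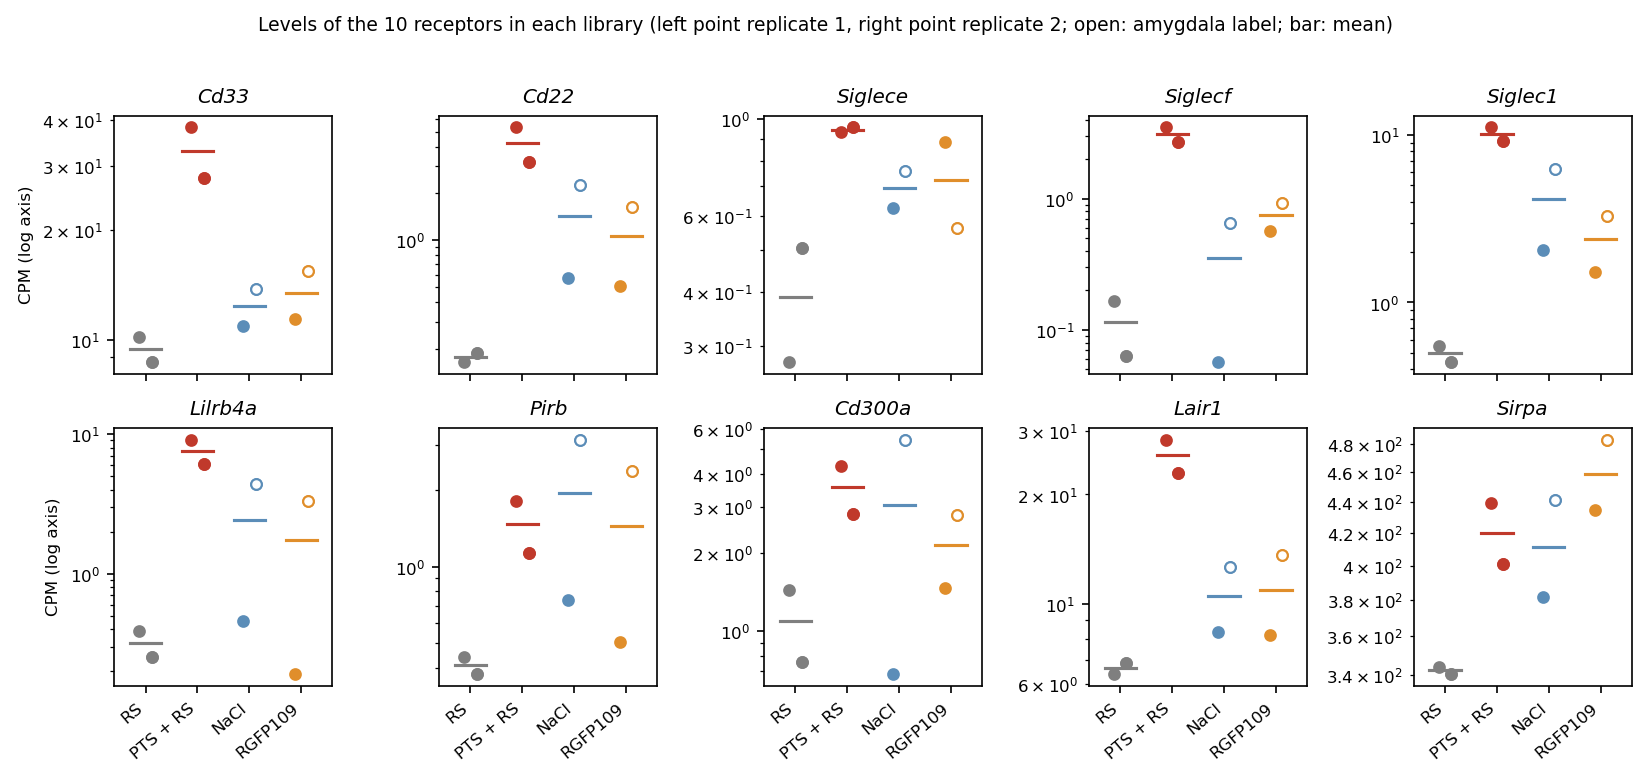
Level of each receptor in every library, in CPM on a log axis with its own range per gene. Left and right points are replicates 1 and 2, open points are amygdala-labelled libraries and bars are means of 2 libraries. In each panel both PTS + RS points lie above both RS points, and in 9 of 10 panels, all but Siglece, both open points lie above both filled NaCl and RGFP109 points.

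Among the Siglecs, Cd33, a sialic acid receptor of microglia and other myeloid cells, had 655 and 464 counts in PTS + RS and 185 and 138 in RS. This is 33.0 ± 7.40 CPM (SD, n = 2) against 9.46 ± 1.06 CPM, a log2 fold change of 1.80 with SE 0.186 (BH-adjusted p = 0.0035, edgeR). Siglec1, also called sialoadhesin, is an adhesion receptor of macrophages that lacks an ITIM. It had 190 and 153 counts in PTS + RS and 10 and 7 in RS. The groups were far apart, at 10.1 ± 1.37 CPM against 0.497 ± 0.0779 CPM, a log2 fold change of 4.32 with SE 0.285 (BH-adjusted p = 6.6e-04, edgeR), which was the lowest adjusted p of the 10.

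Cd22, best known as an inhibitory co-receptor of B cells, had 91 and 53 counts in PTS + RS and 3 in each RS library. The ratio of the summed counts per library size was 24.1, with a 95% counting interval from 10.8 to 66.7 (exact, counting error only), and the adjusted p was 0.0043 in edgeR. Siglecf, a marker of eosinophils and alveolar macrophages, had 60 and 45 counts in PTS + RS and 3 and 1 in RS. Its ratio was 26.3, with a 95% counting interval from 9.99 to 98.5 and an adjusted p of 0.0050 in edgeR. For both genes the RS level was too low to fix the fold more closely than these intervals. Siglece, an inhibitory Siglec of neutrophils and macrophages, stayed low everywhere, with 16 counts in each PTS + RS library and 5 and 8 in RS. Its log2 fold change of 1.28 with SE 0.525 (BH-adjusted p = 0.26, edgeR) was not called.

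Several markers of the cell types for which Cd22 and Siglecf are best known had few counts. The part of these cells in the receptor levels was not tested. Of the B cell markers, Ms4a1 had 0 counts in the 4 libraries of PTS + RS and RS, Cd79b had 2 to 13 and Cd79a had 4 to 11. The 7 B cell markers summed to 20.9 and 21.9 CPM in PTS + RS and to 9.65 and 11.4 CPM in RS, mostly through Ighm, the heavy chain of IgM, which had a log2 fold change of 1.17 (adjusted p = 0.0088, edgeR). Of the eosinophil markers, Prg2 had 0 counts in these 4 libraries and Epx had 7 in each PTS + RS library and 4 and 1 in RS. None of the 7 eosinophil markers had enough counts to be tested, and their summed level was at most 0.700 CPM in PTS + RS and 0.276 CPM in RS.

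Of the immunoglobulin-like receptors, Lilrb4a, an ITIM receptor also called gp49B, rose most. It had 156 and 102 counts in PTS + RS and 7 and 4 in RS, or 7.61 ± 2.12 CPM (SD, n = 2) against 0.319 ± 0.0947 CPM. Its log2 fold change was 4.53 with SE 0.389 (BH-adjusted p = 0.0017, edgeR). Its near-identical neighbour Lilr4b, with 81 and 50 counts against 7 and 0, may share reads with it, and a second annotated gene, Gm49339, covers the same 5656 bases on the same strand with at most 1 count. The split of reads among these genes is uncertain. Lair1, which binds collagens and complement C1q, had 485 and 383 counts in PTS + RS and 116 and 109 in RS. This gave 25.6 ± 3.81 CPM against 6.64 ± 0.337 CPM, a log2 fold change of 1.95 with SE 0.163 (BH-adjusted p = 0.0015, edgeR).

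Pirb, a receptor for MHC class I that also binds the myelin protein Nogo, had 31 and 19 counts in PTS + RS and 8 and 6 in RS. Its log2 fold change was 1.82 with SE 0.485 (BH-adjusted p = 0.10, edgeR), and its near-copy Lilra6 had 0 counts in these libraries. Cd300a, which binds the phospholipids shown by dying cells, had 74 and 47 counts in PTS + RS and 26 and 12 in RS, with a log2 fold change of 1.68 with SE 0.407 (BH-adjusted p = 0.079, edgeR). The libraries of the groups did not overlap in either gene, and neither was called. Without the count filter both were past the threshold (adjusted p = 0.016 for Pirb and 9.0e-05 for Cd300a, edgeR). Neither was past it in DESeq2 (adjusted p = 0.37 and 0.080) or in limma-voom (adjusted p = 0.14 and 0.0996). Leaving out PTS + RS replicate 2, the library with fewer counts of both genes, raised their log2 fold changes to 2.11 and 1.95. Leaving out PTS + RS replicate 1 instead lowered them to 1.45 and 1.34.

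Sirpa, the receptor for the "do not eat me" signal Cd47, was the most abundant of the 10 and moved least. It had 7521 and 6705 counts in PTS + RS and 6236 and 5392 in RS, or 420 ± 26.7 CPM (SD, n = 2) against 342 ± 2.74 CPM. The log2 fold change of 0.30 with SE 0.083 (95% interval 0.099 to 0.49, BH-adjusted p = 0.12, edgeR) was not called. Its relatives Sirpb1a, Sirpb1b and Sirpb1c had at most 6 counts in any library.

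Per length, the order of the levels changed between the groups. In RS, FPKM ran from Sirpa (69.3 ± 0.474, SD, n = 2) through Cd33 (1.21 ± 0.134), Lair1 (0.884 ± 0.0459), Cd300a (0.230 ± 0.100) and Siglece (0.210 ± 0.0874) to Pirb (0.0913 ± 0.00979), Siglec1 (0.0692 ± 0.0108), Lilrb4a (0.0608 ± 0.0180), Siglecf (0.0408 ± 0.0258) and Cd22 (0.0350 ± 0.00336). In PTS + RS it ran from Sirpa (84.9 ± 5.12) through Cd33 (4.21 ± 0.932), Lair1 (3.40 ± 0.495), Lilrb4a (1.44 ± 0.399), Siglec1 (1.41 ± 0.186), Siglecf (1.10 ± 0.200), Cd22 (0.835 ± 0.295) and Cd300a (0.747 ± 0.221) to Siglece (0.508 ± 0.0106) and Pirb (0.327 ± 0.105). Lilrb4a, Siglec1, Siglecf and Cd22 were thus the lowest 4 in RS and ranked next after Lair1 in PTS + RS. Neighbours overlapped between single libraries for Cd33 with Lair1, Lilrb4a with Siglec1, and from Siglecf to Cd300a in PTS + RS, and for Cd300a with Siglece and from Siglec1 to Cd22 in RS.

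Markers of microglia moved with the receptors. The 12 microglial markers, all 12 higher and 11 called, summed to 960 and 1148 CPM in PTS + RS and to 292 and 334 CPM in RS, a 3.37-fold rise of the mean. Each receptor was therefore also set against this sum, as CPM per 1000 CPM of microglial markers. On that scale Cd33 was at 33.3 and 28.9 in PTS + RS and at 30.5 and 29.8 in RS, a ratio of 1.03. The ratio was 1.05 for Pirb, 0.972 for Cd300a and 1.14 for Lair1, and of these only Lair1 had groups that did not overlap (24.7 and 23.9 against 19.2 and 23.5). The folds of Cd33, Pirb, Cd300a and Lair1 were thus close to that of the summed markers.

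The 4 receptors with the largest rises stayed higher on this scale. Lilrb4a was at 7.93 and 6.36 per 1000 CPM in PTS + RS and at 1.16 and 0.864 in RS, a ratio of 7.07. Siglec1 was at 9.66 and 9.53 against 1.65 and 1.51, a ratio of 6.07. From the summed counts the ratio was 7.18 for Cd22 (95% counting interval 3.22 to 19.9) and 7.85 for Siglecf (2.98 to 29.4). Siglece was at a ratio of 0.709 with overlapping groups. Sirpa, 1.23-fold higher in CPM, was lower on this scale in both PTS + RS libraries. It was at 382 and 418 per 1000 CPM against 1030 and 1164, a ratio of 0.365. In RS its level alone was above that of the summed markers, and it is also known from neurons. Its ratio therefore says little about its level in microglia. These ratios are descriptions without a test.

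**Figure D2:**
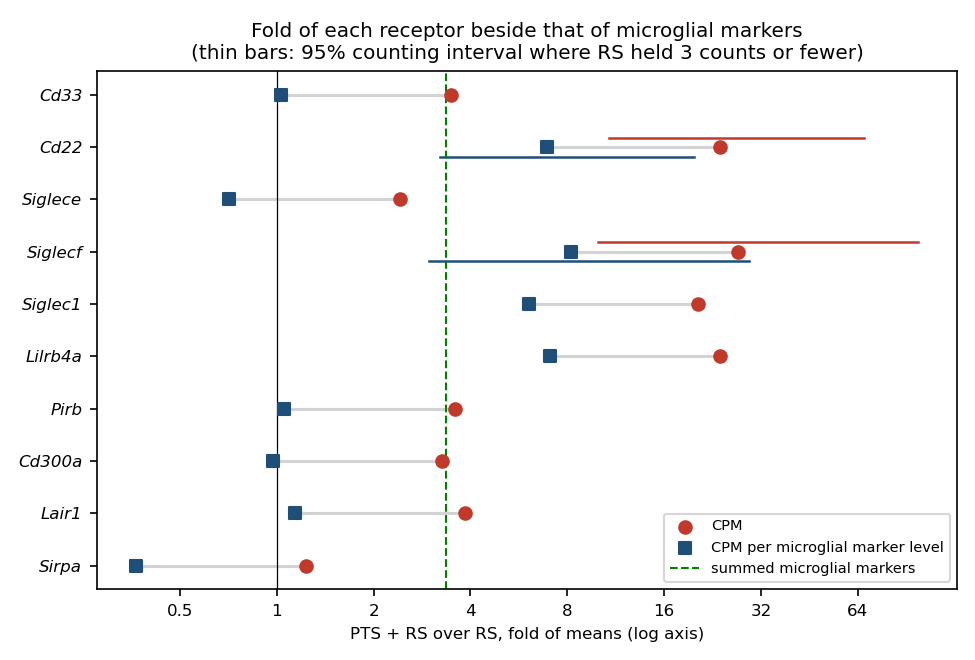
Fold of the group means, PTS + RS over RS, for each receptor in CPM (circles) and per summed level of 12 microglial markers (squares), on a log axis. The dashed line marks the 3.37-fold rise of the summed markers; thin bars are 95% counting intervals of ratios of summed counts. Squares of Cd33, Pirb, Cd300a and Lair1 lie near 1, those of Cd22, Siglecf, Siglec1 and Lilrb4a above 6, and that of Sirpa at 0.365.

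Border macrophages share several of these receptors. Of their 8 tested markers, all 8 were higher in PTS + RS and 2 were called, Stab1 with a log2 fold change of 2.17 (adjusted p = 4.8e-04, edgeR) and Ms4a7 with 3.89 (adjusted p = 0.022, edgeR). The list summed to 122 and 171 CPM in PTS + RS and to 36.8 and 40.2 CPM in RS. These sums rest mostly on the highest gene of each library. It held 1738 of 2039 and 2261 of 2923 counts in PTS + RS and 399 of 583 and 492 of 729 in RS. The mannose receptor gene Mrc1, one of their defining markers, had 208 and 66 counts against 99 and 70. The part of either cell type in the levels of the receptors was not tested beyond the ratios above.

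Related receptors were read from lists beside the 10 genes. Of 14 paired receptors of the Lilr, Cd300, Pilr and Sirp families, 5 were tested, all 5 were higher in PTS + RS and 4 were called, with a median log2 fold change of 3.89 where all tested genes had a median of -0.0015. These were Lilr4b (4.19, adjusted p = 0.030), Cd300lf (4.08, adjusted p = 0.037), Cd300lb (3.89, adjusted p = 0.039) and Cd300c2 (2.12, adjusted p = 0.0043), all by edgeR. Cd300lb had 20 and 13 counts against 1 and 1, a ratio of 16.6 with a 95% counting interval from 4.24 to 142. Of 12 other inhibitory receptors of myeloid cells, 10 were tested and 6 were called higher, with a median of 2.29. Clec12a, an inhibitory C-type lectin, had 19 and 14 counts against 0 and 1, a ratio of 33.1 with an interval from 5.55 to 1348. Cd72 (log2 fold change 4.60, adjusted p = 0.0014), Milr1 (3.15, adjusted p = 0.027) and the inhibitory Fc receptor Fcgr2b (2.85, adjusted p = 0.0015) were also called by edgeR. Genes that were nearly absent in RS had to pass the filter through PTS + RS here too.

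Of 4 other Siglec genes, 2 were tested and none was called. Siglech, a microglial Siglec that signals through the adaptor Tyrobp, was higher with a log2 fold change of 0.84 with SE 0.128 (BH-adjusted p = 0.017, edgeR), inside the fold limit. Mag, the Siglec of myelin, was at 0.10 (adjusted p = 0.63, edgeR).

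Downstream of the receptors, 20 of 22 phosphatases, kinases and adaptors were tested, 18 were higher and 10 were called higher, with a median log2 fold change of 1.19. The largest were the Src family kinase Fgr (3.51, adjusted p = 0.038), the activating adaptors Fcer1g (3.03, adjusted p = 3.8e-04) and Tyrobp (2.94, adjusted p = 3.8e-04), and the exchange factor Vav1 (2.20, adjusted p = 0.0040), all by edgeR. Among genes picked after their values were seen, Ptpn6, which encodes SHP-1, was called with 2.09 with SE 0.172 (BH-adjusted p = 0.0015, edgeR) and Inpp5d, which encodes the lipid phosphatase SHIP1, with 1.76 (adjusted p = 0.0040, edgeR). Ptpn11, which encodes SHP-2 and is made by most cells, was at -0.07 with SE 0.08 (BH-adjusted p = 0.72, edgeR).

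On the ligand side, 22 of 25 protein ligands were tested, 8 were called higher and none lower, with a median log2 fold change of 0.53. The called genes with the largest changes were the C1q genes C1qb (2.78), C1qc (2.69) and C1qa (2.61), each with an adjusted p of 8.0e-05 in edgeR, and Ptprc (2.53, adjusted p = 0.0053, edgeR), whose product CD45 carries glycans bound by CD22. C1q is a ligand of Lair1. Of ligands picked after their values were seen, the MHC class I genes B2m (1.86), H2-D1 (1.48) and H2-K1 (1.51), whose products bind Pirb, were called as well, whereas Cd47, the ligand of Sirpa, was at -0.10 (adjusted p = 0.57, edgeR).

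The enzymes that make and transfer sialic acid moved little. Of 24 tested gene identifiers, none was called, 14 were higher and 10 lower, with a median log2 fold change of 0.05. The lowest adjusted p was that of St6gal1, which makes the linkage that CD22 prefers, at 0.67 with SE 0.126 (BH-adjusted p = 0.038, edgeR), inside the fold limit. Of 5 genes that remove or degrade sialic acid, Npl, which breaks down free sialic acid, was called with 1.83 with SE 0.269 (BH-adjusted p = 0.015, edgeR), and the lysosomal sialidase gene Neu1 was at -0.02 (adjusted p = 0.95, edgeR).

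**Figure D3:**
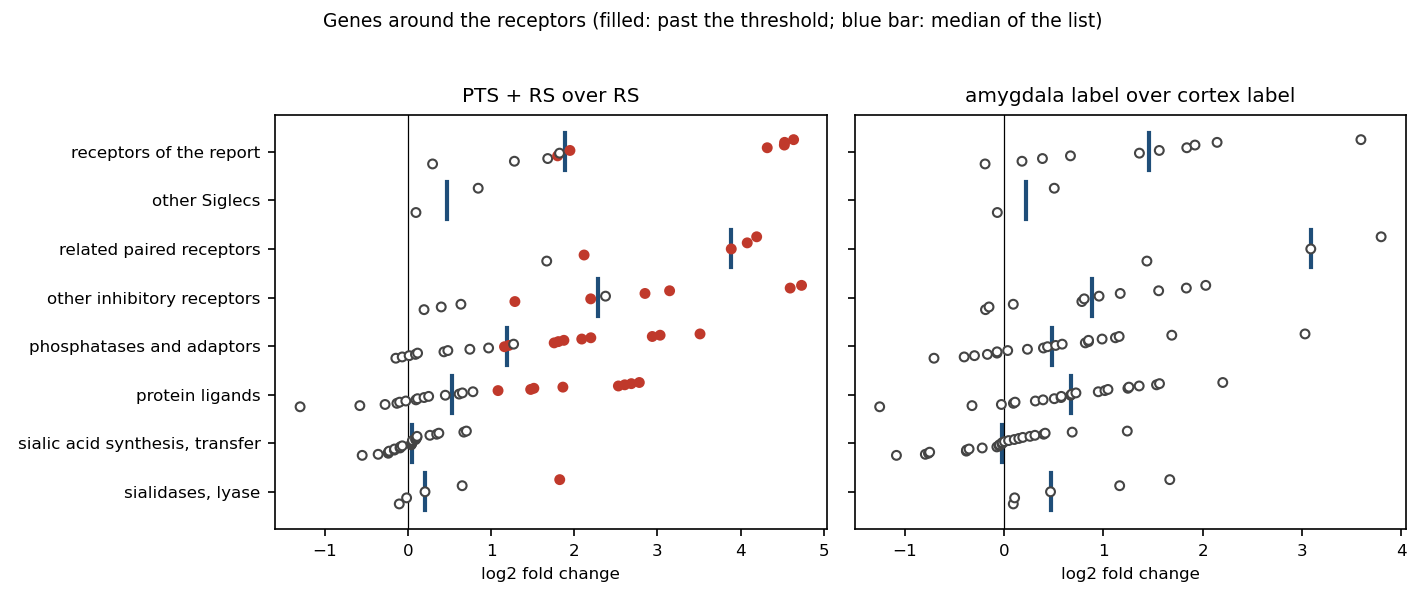
Fitted log2 fold change of every tested gene in the lists around the receptors, PTS + RS over RS on the left and amygdala label over cortex label on the right. Filled points are called genes, open points are not, and blue bars are medians. On the left the called genes lie among the receptors, adaptors and ligands, with 1 among the sialidase and lyase genes (Npl) and none among the enzymes of sialic acid synthesis and transfer. On the right no gene is filled.

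RGFP109 was compared with NaCl in PTS + RS mice, which asks whether the HDAC3 inhibitor changes these genes. None of the 10 receptors was called, and none of the 17565 tested genes was called higher or lower by edgeR's quasi-likelihood test (0% in each direction), whereas 88 were higher and 118 lower at an unadjusted p under 0.05 and DESeq2 called 1 gene lower. The common coefficient of variation between replicates, which here also differ in labelled tissue, was 32.1%, against 11.4% for PTS + RS and RS. In no receptor did the 2 RGFP109 libraries lie wholly above or below the 2 NaCl libraries, where 12.8% of tested genes lay wholly above and 13.8% wholly below. The adjusted p was 0.9997 for each receptor, 5 were higher and 5 lower (47.4% of tested genes were higher), and fitted log2 fold changes ran from -0.78 for Siglec1 to 1.07 for Siglecf.

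The intervals show what these libraries could resolve in a fit with no term for labelled tissue. The difference between the labels is thus part of the spread they rest on. For the abundant genes, the 95% interval of the log2 fold change was -0.36 to 0.67 for Sirpa, -0.58 to 0.82 for Cd33 and -0.92 to 1.03 for Lair1. For Lilrb4a it was -4.23 to 3.34, and a change of several-fold in either direction was not detectable in this fit. Lilrb4a had 3 counts in RGFP109 replicate 1 and 71 in replicate 2, and 8 and 81 in the NaCl libraries. Siglec1 had 24 and 70 against 36 and 115, and Cd300a had 23 and 60 against 12 and 100. In each of these genes the libraries differed by replicate number, and so by labelled tissue, more than by treatment.

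Within each replicate number, single libraries were set against each other with 2 counts added as a prior. RGFP109 was lower than NaCl in both replicate numbers for 4 receptors. These were Siglec1 (log2 ratios -0.40 and -0.91), Lilrb4a (-0.89 and -0.40), Cd22 (-0.13 and -0.46) and Pirb (-0.45 and -0.39). It was higher in both for Siglecf (1.97 and 0.46), Sirpa (0.19 and 0.13) and Cd33 (0.06 and 0.16), where Siglecf rested on 9 counts against 1 in replicate 1. Siglece, Cd300a and Lair1 had opposite signs. No ratio of this kind has a replicate within a labelled tissue. NaCl replicate 1 is the library with olfactory bulb genes, and without it Cd33, Siglece and Lair1 turned to slightly lower values (-0.05, -0.09 and -0.22) while no receptor was called. RGFP109 replicate 1 also stood apart, with choroid plexus markers at 2219 CPM against 182 to 222 CPM in the other 3 libraries. Without it Cd22, Siglece, Lilrb4a and Pirb changed sign (0.20, -0.30, 0.45 and 0.29). Leaving out 1 library leaves 1 labelled tissue in its group and both in the other. These fits have no tissue term, so the shifts also hold the difference between the labels.

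The summed microglial markers were at 378 and 446 CPM with RGFP109 and at 488 and 427 CPM with NaCl, a ratio of 0.901. The sum and its members differed in direction, since 11 of the 12 markers were fitted higher with RGFP109, with a median log2 fold change of 0.13 and a geometric mean 1.04-fold higher. Per 1000 CPM of the sum, only Sirpa had groups that did not overlap (1151 and 1081 against 783 and 1032). In the lists around the receptors no gene was called. The genes with the lowest p in each list were Siglech (0.39), Lilr4b (-1.45), Clec12a (-2.44), Csk (-1.01), Col17a1 (-1.60), St6galnac5 (1.37) and Neu3 (0.41), given as log2 fold changes.

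The amygdala-labelled replicates were then compared with the cortex-labelled replicates of RGFP109 and NaCl, with the treatment as a term in the model. Of the 10 receptors, 9 were higher in both amygdala-labelled libraries than in both cortex-labelled libraries, where 21.6% of the 17565 tested genes lay wholly higher and 22.4% wholly lower. The same 9 had fitted log2 fold changes above 0, as 48.5% of tested genes did. None was called (0% of tested genes called in either direction), in a fit with 1 residual degree of freedom, although 6 receptors had an unadjusted p under 0.05. Of those 6, Cd22, Lilrb4a and Pirb had enough counts to be tested only through the amygdala-labelled libraries, as had Siglecf, so that they had to be higher there. Over all genes, 1069 were higher and 538 lower at that level, and DESeq2 called 155 genes higher and 56 lower. Amygdala markers were higher under the amygdala label in 8 of 10 genes, 4 of them without overlap, with a median log2 fold change of 0.62. Since the cortex and striatal markers were higher there too, the comparison is one between sets of libraries and not between verified regions.

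**Figure D4:**
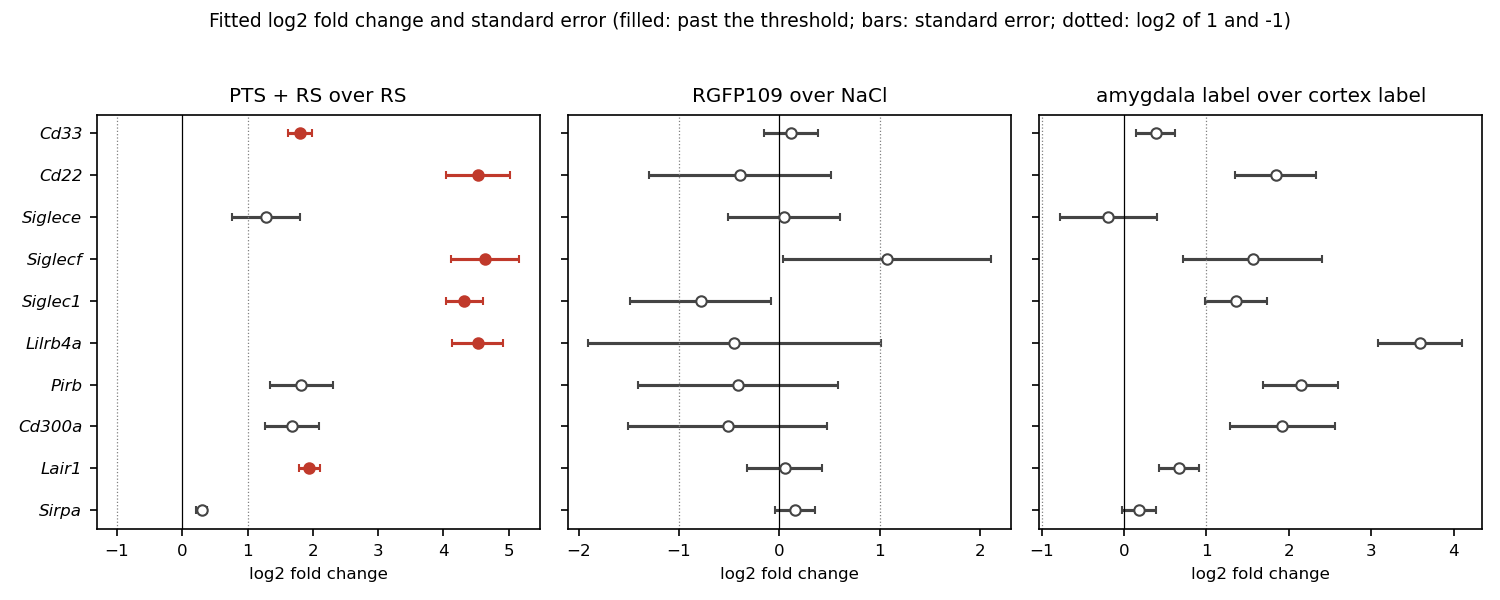
Fitted log2 fold change with its standard error for each receptor in the 3 comparisons, with filled points for called genes. Dotted lines mark log2 fold changes of 1 and -1, and the horizontal range differs between panels. Called genes appear only in the left panel, values scatter around 0 in the middle panel, and on the right Lilrb4a is highest at 3.59 and Siglece lies below 0 at -0.19.

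Lilrb4a had the largest difference between the labels, with 71 and 81 counts under the amygdala label and 3 and 8 under the cortex label, or 3.86 ± 0.768 CPM (SD, n = 2) against 0.323 ± 0.187 CPM. Its log2 fold change was 3.59 with SE 0.507 (BH-adjusted p = 0.31, edgeR), and it was past the threshold in DESeq2 (adjusted p = 0.014) and without the count filter (adjusted p = 0.0096, edgeR). Pirb had 51 and 58 counts against 8 and 13, a log2 fold change of 2.15 (SE 0.453). Cd300a had 60 and 100 against 23 and 12 (1.92, SE 0.637), and Cd22 had 35 and 42 against 8 and 10 (1.84, SE 0.494). Siglecf was at 1.56, Siglec1 at 1.36, Lair1 at 0.67, Cd33 at 0.39 and Sirpa at 0.18 on the log2 scale. Siglece overlapped, with 12 and 14 counts against 14 and 11.

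Several calls in this comparison rest on single cortex-labelled libraries. Without NaCl replicate 1, the library with olfactory bulb genes, and with no treatment term, 5 receptors were called higher by edgeR, namely Lilrb4a, Pirb, Cd300a, Cd22 and Siglec1. Such a fit has 1 cortex-labelled library, which is assumed to vary like the 2 amygdala-labelled ones, and so takes its spread from the latter alone. Without RGFP109 replicate 1, the library with choroid plexus genes, these 5 and Siglecf were called. Over all genes these fits called 744 higher and 397 lower without NaCl replicate 1, and 1396 and 1116 without RGFP109 replicate 1. Without either amygdala-labelled library no receptor was called.

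The summed microglial markers were at 427 and 446 CPM under the amygdala label and 378 and 488 CPM under the cortex label, a ratio of 1.01. Single markers moved more than this sum, since 9 of the 12 were higher under the amygdala label and 8 of these did not overlap, with a median log2 fold change of 0.33 and a geometric mean 1.15-fold higher. Set against this sum, Lilrb4a had a ratio of 12.3 between the labels, Pirb 4.45, Cd300a 3.61, Cd22 3.59, Siglec1 2.67 and Siglecf 2.22, each without overlap. For Siglecf the separation was narrow, at 2.09 and 1.53 per 1000 CPM against 1.51 and 0.117. It came from 20 and 12 counts against 9 and 1. Lair1 was at 1.55 and Cd33 at 1.27, also without overlap, whereas Sirpa (1.09) and Siglece (0.836) overlapped. Border macrophage markers summed to 78.0 and 113 CPM against 55.4 and 62.7 CPM. The highest gene of each library held 937 of 1669 and 1146 of 2076 of these counts against 586 of 974 and 625 of 989. B cell markers summed to 22.6 and 24.9 CPM against 9.78 and 9.96 CPM, again mostly Ighm. T cell markers summed to 14.2 and 14.9 CPM against 2.39 and 3.04 CPM, under the amygdala label mostly through Cd4. That gene had 250 and 193 counts under the amygdala label and 5 and 6 under the cortex label. Only 2 of the 8 T cell markers had enough counts to be tested. The part of these cells in the result was not tested.

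Across the 8 libraries, the highest levels were not all found in PTS + RS. Pirb and Cd300a had their highest library under the amygdala label in NaCl (3.15 and 5.44 CPM), above both PTS + RS libraries (1.81 and 1.14 CPM for Pirb, 4.32 and 2.81 CPM for Cd300a). Cd33, Lair1, Siglec1, Siglecf, Lilrb4a and Cd22 had both PTS + RS libraries above all 4 libraries of RGFP109 and NaCl. NaCl replicate 1, the cortex-labelled vehicle library of PTS + RS mice, lay nearer RS than PTS + RS in each. In Siglecf it was at 0.0569 CPM (RS mean 0.114, PTS + RS mean 3.10). It was at 0.455 for Lilrb4a (0.319, 7.61) and 0.569 for Cd22 (0.177, 4.24). For Siglec1 it was at 2.05 (0.497, 10.1), for Cd33 at 10.9 (9.46, 33.0) and for Lair1 at 8.36 (6.64, 25.6). It thus did not repeat the PTS + RS rises at their size, and the reason was not tested. These levels come from experiments counted by the same stated pipeline. The CPM were scaled within each experiment and not over the 8 libraries together, so they were not on a common scale. The experiments also cannot be told apart from any difference in preparation.

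Around the receptors in the amygdala label comparison, no list gene was called. The genes with the lowest adjusted p were Mag (0.51), Lilr4b (3.80), Vsir (0.78), Tyrobp (1.69), C1qa (1.57), St6gal2 (1.24) and Neu2 (1.67), each given as log2 fold change, and their adjusted p ran from 0.31 to 0.53 in edgeR. The median log2 fold change was 3.09 over 3 tested paired receptors, 0.88 over 10 inhibitory receptors, 0.48 over 20 phosphatases and adaptors and 0.68 over 22 ligands, where all tested genes had a median of -0.013. The 14 listed paired receptors summed to 50 and 79 counts in the cortex-labelled libraries, 33 and 42 of them in the highest gene. Genes nearly absent there could pass the filter only through the amygdala-labelled libraries, so that they had to be higher in those.

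Over all 8 libraries, the genes most like the mean profile of the 10 receptors were Il10ra, the receptor chain for interleukin 10 (Pearson's r = 0.998), the complement gene C4b (0.991), the lymphoid and myeloid transcription factor gene Ikzf1 (0.991), Rhoh (0.989) and the Fc receptor gene Fcgr3 (0.986). Il10ra had 267 and 200 counts in PTS + RS, 67 and 57 in RS, 90 and 200 with RGFP109 and 84 and 215 with NaCl. Its lowest libraries were those of RS, and it was higher under the amygdala label than under the cortex label. Of 16947 genes compared, 219 had an r of 0.9 or more. These values describe 8 libraries that share groups and tissue labels, and carry no test. Among the receptors themselves, Cd22 was closest to their mean (0.992) and Siglece farthest (0.731).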

How the data were processed

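The authors aligned reads to GRCm38 with STAR 2.4.0 and deposited, for each gene and library, the read count from HTSeq 0.6.1 and an FPKM calculated from it. The labels name a directional library kit and the methods another kit, and the strand setting of the counting is not given in the sources used here. The authors' fold changes, p-values and 8 normalized per-library columns (4 of them for a block of 38 genes) were not used. The labels give dosing for 2 weeks, and a legend of the study gives another length.

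Counts were filtered with filterByExpr, normalized by TMM and tested with edgeR's quasi-likelihood test (edgeR 4.0.16, R 4.3.3) with Benjamini-Hochberg adjustment over all tested genes. Samples were grouped by their labels. CPM use the TMM library size. DESeq2 1.42.0, limma-voom (limma 3.58.1), DESeq2-type size factors in edgeR, no filter, a replicate block and leaving out each library were alternatives, and the steps were tested on simulated data. Where both RS libraries had 3 counts or fewer, the ratio of summed counts is given with its exact 95% counting interval. Deviations of same-numbered libraries from their group means correlated by 0.0352 for PTS + RS and RS, so that the numbers were not taken to pair them, and by 0.299 for RGFP109 and NaCl, where the number coincides with the labelled tissue. Replicates differed by more than sampling noise (chi-square per gene of at least 4.60), and none was counted as a duplicate. The receptors and the 25 gene lists were chosen with earlier results of these data known. A marker of the B cell list is not reported here and was left out of its sums. From each list, up to 4 called genes with the largest changes were named, or else the gene with the lowest adjusted p. Promoters are from RefSeq. Python 3.11.15 and matplotlib 3.10.9 drew the figures.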

Additional observations from a re-analysis of the deposited data

Results flagged for a closer look

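In 3 receptors the difference between RGFP109 and NaCl had opposite signs in the cortex-labelled libraries (replicate 1) and the amygdala-labelled libraries (replicate 2). With 1 library of each group per label, this difference was not tested. For Siglece the log2 ratio of RGFP109 to NaCl was 0.43 under the cortex label and -0.38 under the amygdala label, a difference of 0.82, from 11 to 14 counts per library. For Cd300a it was 0.98 and -0.93, a difference of 1.91, from 23 counts against 12 and from 60 against 100. For Lair1 it was -0.03 and 0.11, a difference of -0.14. The cortex-labelled NaCl library is the one with olfactory bulb genes, and its part in these values was not tested.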

How the results depend on the processing

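In PTS + RS against RS, between 6 and 8 receptors were called under each alternative, and Cd33, Cd22, Siglecf, Siglec1, Lilrb4a and Lair1 were called in each. Over all genes, 604 were called higher and 155 lower without a filter, and DESeq2 called 32 lower. With 1 library left out, 308 to 626 were called higher and 15 to 192 lower. The replicate numbers were not taken to pair the libraries of PTS + RS and RS. With the replicate block, Cd300a was also called (adjusted p = 0.025, edgeR) and 32 genes were lower, and in RGFP109 against NaCl the block, which is there the labelled tissue, changed no call.

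In RGFP109 against NaCl no receptor was called under the alternatives run. DESeq2 called 1 gene lower, and with 1 library left out 0 to 15 genes were called higher and 0 to 78 lower, the highest counts without NaCl replicate 2. The signs were not stable under limma-voom or with 1 library left out. With the replicate block each receptor kept the sign of the main fit. Leaving out 1 library gives its group a single labelled tissue, so those fits mix treatment with label. With limma-voom, Siglece was at -0.0035 and Cd300a at 0.083 on the log2 scale. With 1 library left out, log2 fold changes ran from -0.11 to 0.32 for Cd33, -1.48 to 0.94 for Cd22, -0.30 to 0.35 for Siglece, -1.44 to 0.25 for Siglec1, -3.63 to 1.97 for Lilrb4a, -1.93 to 1.00 for Pirb, -1.34 to 1.65 for Cd300a and -0.36 to 0.40 for Lair1.

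In the amygdala label against the cortex label, DESeq2 called 1 receptor, 155 genes higher and 56 lower, and edgeR without a filter called 1 receptor, 187 genes higher and 53 lower. With 1 library left out and no treatment term, 0 to 6 receptors, 0 to 1396 genes higher and 0 to 1116 genes lower were called, and Siglece ran from -0.42 to 0.075. The cause of these shifts was not tested. The geometric mean of the microglial markers in place of their sum was an alternative chosen after seeing the data. With it the ratios moved by less than the replicate spread of both groups combined on the log2 scale. Some ratios crossed 1, namely Cd300a in PTS + RS over RS (0.972 to 1.04), Sirpa between the labels (1.09 to 0.986) and Lair1 with RGFP109 (1.12 to 0.994). With 2 libraries a group and under 20 counts in many libraries, Siglece, Pirb and Siglecf are limited by depth.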

Other observations

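Among genes outside the comparisons above, Csf3r, the receptor for granulocyte colony-stimulating factor, was called higher in PTS + RS than in RS with a log2 fold change of 2.25 (BH-adjusted p = 0.0014, edgeR). It was the 1 gene of the 10 neutrophil markers with enough counts to be tested. The neutrophil markers summed to 32.9 and 45.5 CPM in PTS + RS and to 8.17 and 8.33 CPM in RS, mostly through Csf3r, whereas S100a8 and S100a9 had 0 to 3 counts in each of these libraries.

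Several relatives of the receptors stayed too low to be tested in PTS + RS against RS. Siglecg, a Siglec of B cells, had 2 to 4 counts per library. Lilra5 had 7 and 2 counts in PTS + RS and 6 and 2 in RS. Cd300ld had 19 and 6 counts in PTS + RS and 0 and 3 in RS, a ratio of 8.36 with a 95% counting interval from 2.55 to 43.3.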
